A study of Bos taurus with 20 samples.

Results

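The transcripts described here are those of the trophoblast Kunitz domain protein genes TKDP1 and TKDP4 and of the interferon tau gene IFNT2, measured in bovine endometrium on day 18. They were taken as all cDNA clones of the 18KB array whose single gene symbol is one of these 3, which gave 26 of its 1536 clones: 15 of TKDP1, 7 of TKDP4 and 4 of IFNT2. None of the 3 (0) is named on the 18KO array, so all values come from the 18KB array. The pregnant group held 4 Simmental heifers (Deutsches Fleckvieh), numbers 316, 426, 447 and 448, aged 17 to 20 months, which were inseminated with frozen and thawed sperm and carried an intact conceptus that was removed at dissection. They were compared with 6 control heifers, numbers 330, 404, 427, 434, 440 and 449, aged 18 to 22 months, which received the cell-free supernatant of the same bull's semen and were at day 18 of the cycle. Both groups were synchronised with the prostaglandin analogue cloprostenol. The tissue was cut from the lamina propria of intercaruncular endometrium, in the caudal part of the ipsilateral horn. Total RNA of each animal was converted to cDNA, labelled radioactively and hybridised to spotted PCR products of the clones, with all 10 animals run together. The 18KB library had been subtracted to enrich transcripts more abundant in pregnant animals, and clones were sequenced mainly when they differed between these same 10 animals.

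In ruminants the trophoblast, the outer cell layer of the conceptus, secretes interferon tau in the days before attachment. This type I interferon binds the interferon alpha and beta receptor on the endometrium, acts through the JAK and STAT proteins with IRF9, and induces interferon-stimulated genes, while luteal regression is prevented. The trophoblast Kunitz domain proteins are secreted by the same cells in the same period and carry the fold of Kunitz serine protease inhibitors, such as pancreatic trypsin inhibitor. Both kinds of transcript are known as products of the conceptus and not of the uterine wall. The comparison bears on how much of their signal was found in endometrium from which the conceptus had been taken away. Where the signal came from was not tested, and the clones gave some signal in controls as well. In a bulk tissue sample, fewer cells of a type and less RNA per cell cannot be told apart.

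Both gene families have close copies in the cow. The RefSeq gene table of assembly ARS-UCD2.0 lists 3 TKDP symbols (TKDP1, TKDP2 and TKDP4) and 2 interferon tau symbols (IFNT2 and IFNT3). In its order TKDP1 and TKDP4 have 1 gene between them, TKDP4 and TKDP2 none (0), and IFNT2 and IFNT3 1. A spotted cDNA can also bind transcripts of a near-identical copy, so the values belong to a gene and its close copies, and how much each copy gave was not tested. Of 19 trophoblast markers, the 3 members were the ones named on the 18KB array, and none (0) was named on the 18KO array. The trophoblast label could thus not be checked against markers other than the members.

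Spot intensities on the 18KB array ran from 0 to 685.73 on a linear scale, with column medians from 1.39 to 3.18. Log2 columns of animals of one group correlated at 0.935 to 0.982. A low value means here one under 0.32, the 10th percentile of all intensities of the array. Fold changes are on the log2 scale, pregnant minus control, with the standard error from limma, a linear model with a shared estimate of variance that was fitted to all features of the array. A feature is a gene with 1 symbol, averaged over its clones, or a clone without one. The rule for a call was a 2-fold change or more with an adjusted p below 0.01, and by it 15.6% of the 1420 features were higher in pregnant animals and 0.634% lower.

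Among the secreted inhibitor-like proteins, TKDP1 was abundant in 1 pregnant animal, intermediate in 2 others and inside the control range in the 4th. Its geometric mean intensity over 15 clones was 0.341 in pregnant 316, 2.85 in pregnant 426, 1.43 in pregnant 447 and 16.1 in pregnant 448, against a lowest value of 0.187 (control 434), 0.222 (control 440), 0.233 (control 404), 0.234 (control 330), 0.245 (control 449) and a highest of 0.401 (control 427). Pregnant 426, 447 and 448 lay above every control, and pregnant 316 lay above every control but 427. TKDP1 was called higher in pregnant animals, by 8.84-fold (log2 3.14 ± 0.78, 95% interval 1.43 to 4.86, limma adjusted p = 0.00921, 4 pregnant and 6 control animals). The two-sided exact permutation p over the 210 splits of the animals was 0.00952, or 0.0377 after adjustment over all features. A p of this size or smaller with a higher mean in pregnant animals was found in 23.2% of features. The adjusted p lay just under the threshold, and the call was lost without pregnant 426 (3.01), 447 (3.35) or 448 (2.18), without control 330, 404, 434, 440 or 449 (3.06 to 3.14), and when column medians were set equal (2.31, adjusted p = 0.0244).

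TKDP4, the other Kunitz gene, had the same order of animals. Its geometric mean intensity over 7 clones was 0.516 in pregnant 316, 2.33 in pregnant 426, 1.29 in pregnant 447 and 18.6 in pregnant 448, against 0.345 to 0.705 in the 6 controls, with the lowest in control 330 and the highest in control 427. Again pregnant 426, 447 and 448 exceeded all controls, and pregnant 316 exceeded all but control 427. The difference of 4.95-fold (log2 2.31 ± 0.74, 95% interval 0.68 to 3.93) did not pass the threshold (limma adjusted p = 0.0326), and its exact permutation p was also 0.00952 (0.0377 adjusted). With equal column medians the difference was 1.48 (adjusted p = 0.111) and with quantile normalization 1.50. Without pregnant 316 it was called (3.03, adjusted p = 0.00585), and without pregnant 448 it was 1.31.

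IFNT2 encodes the interferon tau signal itself. Over its 4 clones the geometric mean intensity was 0.586 in pregnant 316, 2.86 in pregnant 426, 1.59 in pregnant 447 and 6.95 in pregnant 448, against 0.377 to 0.683 in the controls. The same 3 pregnant animals stood above all controls, and pregnant 316 lay below control 427 and above the other controls. IFNT2 was called higher in pregnant animals, by 4.47-fold (log2 2.16 ± 0.52, 95% interval 1.01 to 3.31, limma adjusted p = 0.00797). The exact permutation p was the same as for the Kunitz genes, 0.00952 (0.0377 adjusted). The call was lost without pregnant 426 (2.01), 447 (2.29) or 448 (1.58), without control 330, 404, 434, 440 or 449 (2.10 to 2.18), and with equal column medians (1.33, adjusted p = 0.0419).

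**Figure D1:**
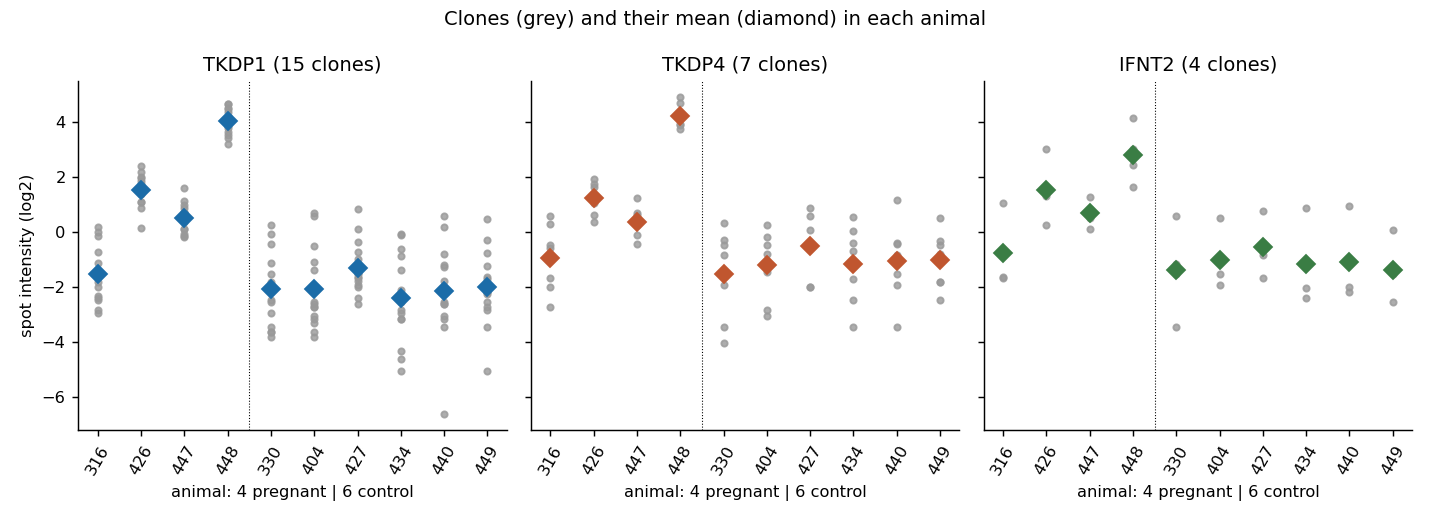
Log2 spot intensity of each clone (grey points) and the mean of a gene's clones (diamonds) for TKDP1, TKDP4 and IFNT2, with the 4 pregnant animals left of the dotted line and the 6 controls right of it. In all 3 panels pregnant 448 is highest, 426 and 447 follow, and the mean of pregnant 316 lies above every control but 427.

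The 3 genes were spread widely within the pregnant group. The SD of the log2 level among the 4 pregnant animals was 2.31 for TKDP1, 2.19 for TKDP4 and 1.50 for IFNT2, higher than in 98.0%, 97.9% and 96.8% of all features. The median SD of all features among pregnant animals was 0.35. Among the 6 controls the SD of the 3 genes was 0.37, 0.34 and 0.31, close to the median of all features there (0.35). The 3 genes are means over 15, 7 and 4 clones, while 1334 of the 1420 features are single clones. Their SDs are thus not like measures, and they are descriptions with no test. The fold changes above are averages over these animals, and the fit uses 1 variance for both groups.

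The animals came in the same order in each clone. In 26 of 26 clones pregnant 448 was the highest of all 10 animals, and in 26 of 26 the pregnant animals ranked 448, 426, 447, 316. Over the array 7.36% of clones had pregnant 448 highest and 4.88% had this order. The clones of an animal were hybridised with 1 labelled cDNA on 1 array, and clones of a gene share their sequence, so 26 clones are not 26 observations. In 25 clones the animals 426, 447 and 448 were all above every control. The exception was TKDP4 clone 18KB-03-A03, in which control 427 had 1.81 and pregnant 447 had 1.60. Pregnant 316 lay within the control range in 21 clones and above all controls in 5, of which 3 were of TKDP1 and 2 of IFNT2. All 4 pregnant animals exceeded all controls in these 5 clones, 5 of 26, against 26.7% of all clones of the array.

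Clones of 1 gene agreed in direction and differed in size. All 26 had a positive log2 fold change, and the range was 1.56 to 5.08 for TKDP1, 1.54 to 3.38 for TKDP4 and 0.89 to 3.92 for IFNT2. By the rule of an adjusted p under 0.01 and a 2-fold change, 7 of the 26 clones were called higher, against 20.5% of all clones: 6 of TKDP1, none (0) of TKDP4 and 1 of IFNT2. With an adjusted p under 0.05 and no fold rule, 22 of the 26 passed, against 35.6% of all clones. Clones were sequenced mainly when they differed between these same animals, so such shares of named clones were partly given in advance. At gene level, 77.9% of the 86 named genes were called higher by the first rule. The count of 7 became 21 without pregnant 316, 3 without 448 and 0 without 426 or 447. It was 1 without control 330 or 434, 2 without 440 or 449 and 3 without 404. With the floor at the 10th percentile it was 0. With the floor of 0.01, all 26 clones had an unadjusted limma p under 0.05, as did 623 of the 1420 features.

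The 6 called TKDP1 clones were dim in controls and bright in pregnant 448. These traits were not particular to them: some uncalled TKDP1 clones were as dim in controls, and some as bright in pregnant 448. Clone 18KB-15-A01 had 0.14, 3.30, 2.18 and 22.36 in pregnant 316, 426, 447 and 448, against 0.03 to 0.16 in controls (log2 5.08 ± 1.09, limma adjusted p = 0.00351). This clone was also the one of TKDP1 with the lowest mean level. Clone 18KB-05-H07 had 0.25, 2.95, 1.62 and 24.76 in the same pregnant animals, against 0.01 to 0.26 in controls (5.04 ± 1.16, limma adjusted p = 0.0052). Its control 440 stood at the floor of 0.01, the one value of the 26 clones to do so. Clones 18KB-13-B04, 18KB-13-A03, 18KB-16-G03 and 18KB-15-A08 were called with log2 fold changes of 4.17, 3.71, 3.65 and 3.10. At the other end, 18KB-08-G01, the TKDP1 clone with the highest mean level, had 1.12, 3.61, 3.0 and 20.47 in pregnant animals, against 0.94 to 1.77 in controls (1.56 ± 0.61, limma adjusted p = 0.0629).

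The size of the change also differed between clones of TKDP4 and of IFNT2. For TKDP4, 18KB-08-H11, with the lowest mean level, had 17.69 in pregnant 448 against 0.09 to 0.25 in controls (3.38 ± 1.00, limma adjusted p = 0.0195), and 18KB-07-E12, with the highest, had 19.03 against 0.82 to 2.21 (1.54 ± 0.58, limma adjusted p = 0.0566). For IFNT2 the one called clone was 18KB-06-H10, with 0.32, 8.03, 1.76 and 17.57 in pregnant 316, 426, 447 and 448, against 0.09 to 0.31 in controls (3.92 ± 0.90, limma adjusted p = 0.00518). In 18KB-16-A01, the brightest of this gene, pregnant animals had 2.08, 2.47, 2.37 and 5.39, against 1.05 to 1.90 in controls (0.89 ± 0.28, limma adjusted p = 0.0256). The dimmest IFNT2 clone, 18KB-09-A01, had 3.09 in pregnant 448 against 0.22 to 0.55 in controls (1.61 ± 0.52, limma adjusted p = 0.0288). Of 156 control values of the 26 clones 79 were low, as were 11 of the 26 of pregnant 316, and none (0) of the other 78 values of pregnant animals.

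**Figure D2:**
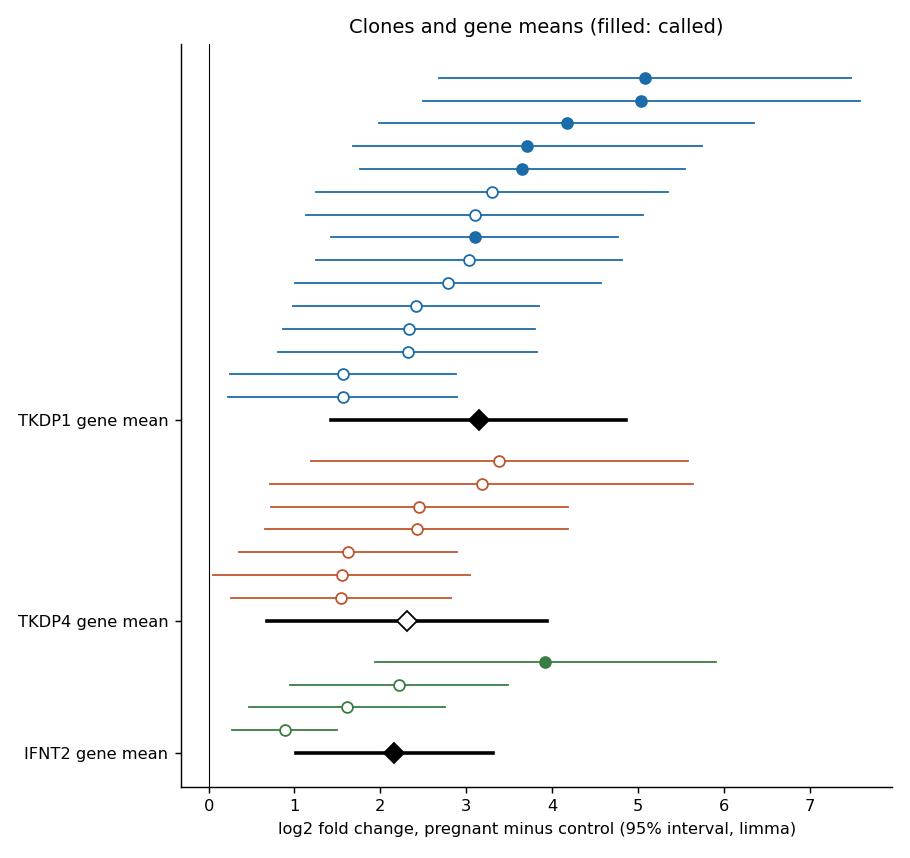
Log2 fold change, pregnant minus control, of each of the 26 clones (circles) and of the 3 gene means (diamonds) with 95% intervals from limma, filled where called. All values are above 0; clones of TKDP1 run from 1.56 to 5.08.

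Within a clone the animals can be set against each other, and the 3 genes differed in how far below pregnant 448 the other animals lay. After the mean of the controls was subtracted from each clone, the level in pregnant 426 was 15.7% of that in pregnant 448 for TKDP1 (median of 15 clones, range 10.5% to 25.9%), 9.38% for TKDP4 (7 clones, 7.52% to 13.1%) and 31.0% for IFNT2 (4 clones, 23.6% to 45.0%). The ranges of TKDP4 and IFNT2 did not overlap, and that of TKDP1 overlapped both. Clones are not replicates, and how often clones of other genes lie apart in this way was not counted. In pregnant 447 the medians were 6.41%, 4.17% and 16.9%, and in pregnant 316 0.42%, 0.24% and 1.03%. In both 426 and 447 the median share was highest for IFNT2 and lowest for TKDP4. These are shares in single animals, and no test was made. In pregnant 426 the order of the 3 genes was kept with equal column medians, at 12.7%, 5.19% and 21.4%, and with quantile normalization, at 13.2%, 5.25% and 21.1%. In pregnant 447 the order was kept as well, but the shares were smaller: 3.82%, 0.71% and 6.39% with equal column medians, and 3.56%, 0.40% and 5.72% with quantile normalization. Without the subtraction the shares in 426 were 17.7%, 13.1% and 42.1%.

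Over the 10 arrays the gene levels correlated at 0.981 between TKDP1 and TKDP4, 0.992 between TKDP1 and IFNT2, and 0.969 between TKDP4 and IFNT2 on the log2 scale. Without pregnant 448 these were 0.978, 0.986 and 0.985. Among the other genes with 1 symbol, those most like TKDP1 were SERPING1, which inhibits complement protease C1 (r = 0.833), LY6E, a membrane-anchored surface protein (0.818), and CD74, a chaperone of MHC class II molecules (0.792). SERPING1 (0.855), LY6E (0.849) and CD74 (0.837) also ranked next for IFNT2. For TKDP4 the next were CNDP2, a dipeptidase (0.772), LY6E (0.752) and SERPING1 (0.738). These correlations describe 10 arrays that share the split into pregnant and control animals and, within an array, the same labelled cDNA. SERPING1 had 10.3, 17.4, 18.5 and 15.8 in pregnant 316, 426, 447 and 448, against 4.44 to 5.26 in controls. Pregnant 316 was the lowest of the pregnant animals here too, but lay above all controls.

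Of 1334 clones without a single name, 7 correlated above 0.9 with each of the 3 genes, and in all 7 the pregnant animals ranked 448, 426, 447, 316, an order largely fixed by choosing clones for their likeness over these arrays. Clone 18KB-03-C12 had 0.49, 5.13, 3.76 and 33.37 in pregnant 316, 426, 447 and 448, against 0.17 to 0.43 in controls (log2 3.71 ± 0.87, limma adjusted p = 0.00592). Clone 18KB-07-A08 had 0.20, 1.40, 0.74 and 4.27, against 0.11 to 0.25 (2.61 ± 0.65, limma adjusted p = 0.00816). Clone 18KB-04-D12 reached 27.17 in pregnant 448, with 0.18, 1.41 and 0.79 in 316, 426 and 447, against 0.04 to 0.20 in controls (4.01 ± 1.09, limma adjusted p = 0.0132). The first and second of these were called and the other 5 were not. Which transcripts these 7 clones hold is not known here. Without pregnant 448 their correlations were 0.915 to 0.983 with TKDP1, 0.851 to 0.986 with TKDP4 and 0.897 to 0.968 with IFNT2, and with equal column medians 5 clones passed 0.9 with all 3 genes.

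**Figure D3:**
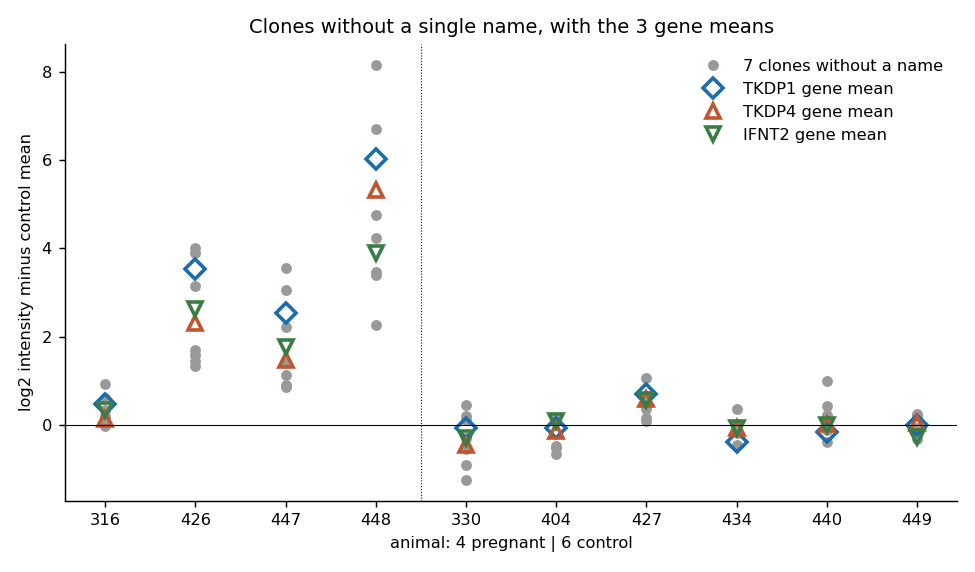
Log2 intensity minus the control mean, by animal, for the 7 clones without a single name that correlated above 0.9 with each of the 3 genes (grey points) and for the 3 gene means (open symbols), pregnant animals left of the dotted line. Clones and genes peak in pregnant 448 and lie near 0 in pregnant 316 and the controls.

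The interferon-stimulated genes were next set beside the IFNT2 transcript in the same animals. Of 65 interferon-stimulated genes listed, 22 had a name on the 18KB array, and all 22 were called higher in pregnant animals, against 77.9% of the 86 named genes and 15.6% of all features. Their median log2 fold change was 2.56, from 1.11 to 4.85, against 1.85 over the named genes and 0.38 over all features. The genes with the smallest p were ISG15, a ubiquitin-like modifier (4.85 ± 0.46), UBA7, its activating enzyme (4.20 ± 0.41), PARP12, an ADP-ribosyltransferase (2.80 ± 0.25), and IFI6, a mitochondrial protein (2.44 ± 0.21). Of 15 genes of the receptor and its signalling, 2 were named and both were called: IRF9, part of the transcription factor complex activated by type I interferons (1.64 ± 0.31), and USP18, which removes ISG15 from proteins and restrains the receptor (2.65 ± 0.30). With equal column medians IRF9 was at 0.81 and no longer called. Under that scaling 20 of the 22 interferon-stimulated genes were called higher, against 5.77% of all features and 45.3% of the named genes. The exceptions were LGALS3BP and PLSCR2, which also lost the call with quantile normalization, as PLSCR2 did with 1 scaling factor per animal. These genes were sequenced mostly because they differed between these animals.

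The animals ranked differently for the IFNT2 transcript and for the interferon-stimulated genes. Interferon tau protein was not measured, and the transcript was measured after the conceptus had been removed. The mean log2 level of the 22 genes was 2.32 in pregnant 316, 2.86 in pregnant 426, 3.06 in pregnant 447 and 2.31 in pregnant 448, against -0.53 to 1.03 in controls. In this mean, pregnant 316 and pregnant 448 were nearly equal, and they were the lowest and the highest of the pregnant animals in IFNT2, with log2 levels of -0.77 and 2.80. ISG15 had geometric mean intensities of 48.2, 67.6, 87.5 and 51.3 (pregnant 316, 426, 447 and 448), against control values of 1.34 to 8.52. With 4 pregnant animals no correlation was computed. Control 427 had the highest mean of the 22 genes among controls (1.03, against -0.53 to -0.14 in the others) and also the highest TKDP1, TKDP4 and IFNT2 levels among controls. Its 18KB column, like those of pregnant 426 and 447, held 0 values of 0.01 or less, while 9 to 16 such values were found in each of the other 7, and the part of this in the low values was not tested. With these 3 arrays as a block the log2 fold changes were 3.05 for TKDP1, 2.35 for TKDP4 and 2.04 for IFNT2, with limma adjusted p of 0.0172 for TKDP1 and 0.0162 for IFNT2.

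**Figure D4:**
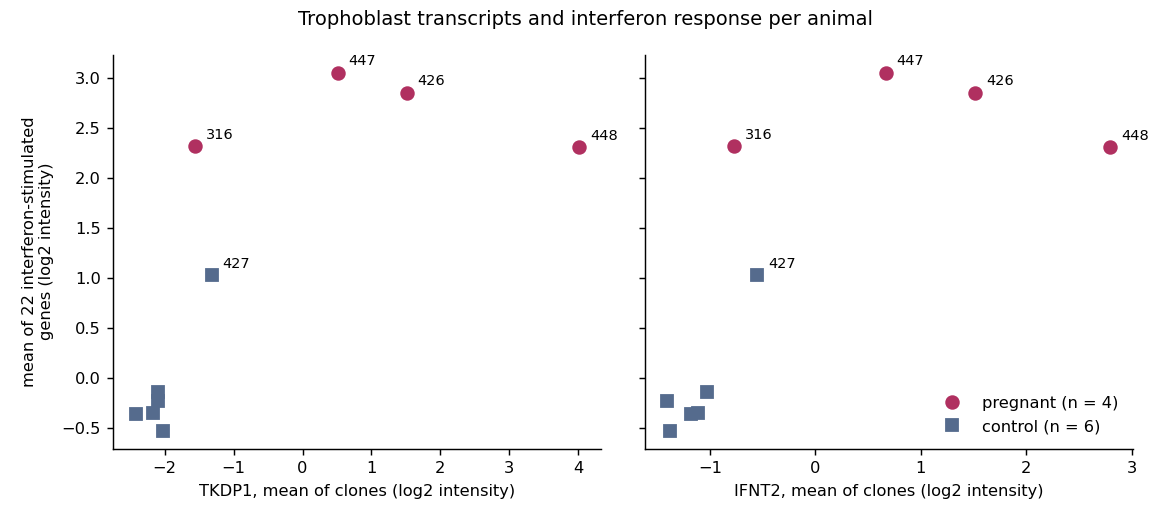
Mean log2 intensity of 22 interferon-stimulated genes (vertical axis) against the log2 level of TKDP1 (left) or IFNT2 (right), 1 point per animal, circles for pregnant and squares for control animals. The 4 pregnant animals lie between 2.31 and 3.06 on the vertical axis, and control 427 lies between the groups on that axis.

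Markers of other cells also differed between these animals. The stroma markers COL1A1, COL1A2 and COL3A1 were 3 of 8 listed. Their summed intensity on the 18KB array was 107 to 436 in pregnant animals and 622 to 1415 in controls, and all 3 were called lower. In all, 9 of the 86 named genes and 0.634% of the 1420 features of that array were called lower. On the 18KO array the same 3 genes summed to 48.9 to 218 in pregnant animals and 259 to 894 in controls. There 2 of them were called lower, and COL1A2 was not (limma adjusted p = 0.0251). The share of all 18KO features called lower is not given here, for these genes or for ACTA2 below. Pregnant 448, the animal with the most TKDP1, TKDP4 and IFNT2, had the lowest collagen values, with COL1A1 at 27.8. The other pregnant animals had 53.1 (316), 99.4 (426) and 106 (447), and controls had 155 to 526. On the 18KO array, the uterine epithelium markers CLDN4, CLDN10 and SERPINA14, 3 of 10 listed, summed to 28.1 to 36.0 in pregnant animals and 19.9 to 105 in controls. None (0) was called, and their differences had opposite signs: 1.96 for CLDN4 (18.9 to 32.6 in pregnant animals and 1.75 to 19.7 in controls, limma adjusted p = 0.0384), -1.93 for CLDN10 and -1.37 for SERPINA14. The muscle marker ACTA2, 1 of 4 listed, was called lower there (log2 -1.41, limma adjusted p = 0.00508), with 3.90 to 6.93 in pregnant animals, lowest in 448, and 9.71 to 24.5 in controls. The part of tissue composition in the differences between pregnant animals was not tested. Of the 7 leukocyte, 3 blood and 3 endothelium markers none (0) was named on either array. Other secreted trophoblast products, such as the pregnancy-associated glycoproteins and placental lactogen, gave 0 named genes of 32 listed. Of 22 protease inhibitors 1, SERPING1, was named on the 18KB array and was called higher (1.64 ± 0.18). There 77.9% of the named genes and 15.6% of all features were called higher. SERPING1 was no longer called with equal column medians (0.81) or quantile normalization (0.85). On the 18KO array 5 of the 22 inhibitors were named, among them SERPINA14, and the changes of the others are not given here.

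**Figure D5:**
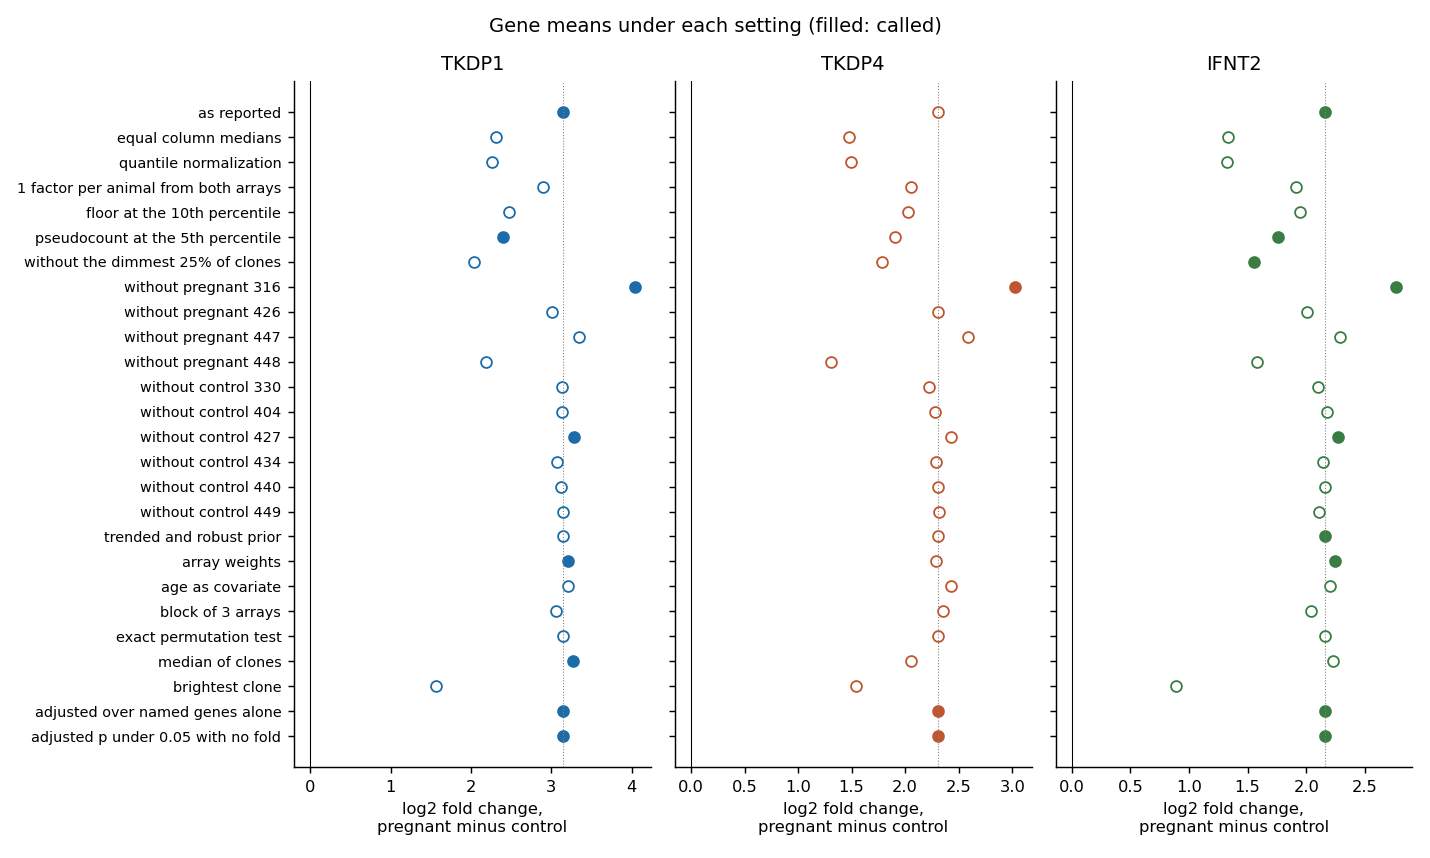
Log2 fold change, pregnant minus control, of the 3 gene means under each setting tried, filled where called, with the reported value as a dotted line. Every value is above 0; the smallest is 0.89, for the brightest IFNT2 clone alone.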

How the data were processed

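Per the labels' protocols, radioactive cDNA of each animal was hybridised to spotted PCR products, all animals at the same time. The authors deposited linear spot intensities; how background was subtracted and columns were scaled is not stated there. The log2 of the deposited values was used, with anything below 0.01 set to 0.01. The tables held 0 other columns of per-sample values. Clones were named through the platform's gene table: 202 of 1536 clones have 1 symbol, 9 several, and the rest none. All 3 member identifiers were found in the RefSeq table. Clones with 1 symbol were averaged per gene, and the 86 genes and 1334 other clones were fitted together with lmFit and eBayes of limma 3.58.1 in R 4.3.3, with Benjamini-Hochberg adjustment over all 1420 features; clones were also fitted singly over 1536. Thresholds follow the series design text. The exact permutation p is the share of 210 splits with an absolute difference of means at least as large, the smallest possible being 0.00476. The fit was tested on simulated data with 1 SD per feature for both groups, which does not cover the wider spread of the 3 genes in pregnant animals. Members, lists and rules were chosen with earlier results of these data known. Named were the 3 genes; per gene the clones with the highest and lowest mean level and every called clone; up to 4 genes per list with the smallest p; and the 5 genes most like each member. Clones 18KB-03-A03, 18KB-03-C12, 18KB-07-A08, 18KB-04-D12 and 18KB-05-D02 were chosen after their values were seen. Precision is limited by the number of animals, which are the replicates. Figures were drawn with matplotlib 3.10.9.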

Additional observations from a re-analysis of the deposited data

Results flagged for a closer look

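Among 60 groups of values tested for a single distant animal, 4 had one, and chance alone would give about 1 in 20. Control 427 stood apart from the other 5 controls in TKDP1 (geometric mean intensity 0.401, against 0.187 to 0.245), in TKDP4 clone 18KB-03-A03 (1.81, against 0.62 to 0.79) and in the mean of the interferon-stimulated genes (geometric mean intensity 2.04, against 0.694 to 0.906). Control 449 stood apart in TKDP4 clone 18KB-05-D02, with 0.28 against 0.55 to 0.76 in the other controls. Among pregnant animals none (0) stood apart in this way.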

How the results depend on the processing

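All log2 fold changes of the 3 genes stayed above 0 under the 15 alternative settings and without any 1 animal. The fold change cannot move under the trended and robust prior, the permutation test or the adjustment over named genes. Nor can it at an adjusted p under 0.05 with no fold. The call of TKDP1 was lost under quantile normalization (2.26), under equal column medians (2.31), when each animal had 1 scaling factor for both arrays (2.89), when the floor was the 10th percentile (2.47), without the dimmest 25% of clones (2.04), with a trended and robust prior (3.14), age as a covariate (3.20), the 3 arrays as a block (3.05), the exact permutation test (3.14) and the brightest clone (1.56). The call of IFNT2 was lost under quantile normalization (1.32), equal column medians (1.33), 1 factor per animal (1.91), the floor (1.95), age (2.20), the block (2.04), the permutation test (2.16), the median of clones (2.23) and the brightest clone (0.89). The adjusted p ranged from 0.0006 to 0.0648 for TKDP1, 0.0058 to 0.111 for TKDP4 and 0.0004 to 0.0419 for IFNT2. TKDP4 was called with the adjustment over named genes or at an adjusted p under 0.05 with no fold (both 2.31). Clones were sequenced, and so named, mainly when they differed between these same animals, and 77.9% of the 86 named genes were called higher. A call with the adjustment over named genes was thus partly given in advance for each of the 3 genes, and no conclusion is drawn from it. Without 1 animal the ranges were 2.18 to 4.03 for TKDP1, 1.31 to 3.03 for TKDP4 and 1.58 to 2.77 for IFNT2.

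Of the 26 clones, 2 were called with equal column medians, 4 with quantile normalization or without the dimmest clones, 3 with 1 factor per animal or with the trended and robust prior, 17 with array weights, 1 with age or with the block, 22 at an adjusted p under 0.05 with no fold, and 0 with the floor or the permutation test; without 1 animal the number was 0 to 21. Over the array 230 features were called (221 higher, 9 lower), 479 at an adjusted p under 0.05 with no fold, and 177 to 252 without 1 animal. The permutation test called 0, with 584 features at an unadjusted p under 0.05, since its smallest adjusted p was 0.0246. Scaling moved the median of all clones, from 0.44 as deposited to -0.39 with equal column medians, -0.25 with quantile normalization and 0.19 with 1 factor per animal. The called features then split 82 higher to 172 lower, 102 to 133 and 151 to 23. No paired analysis was possible because pregnant and control groups share no animal number and the 3 genes are named on 1 array. The causes of these changes were not tested, and the scaling that the authors applied is unknown.

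Settings added after seeing the data were the scalings for the shares of pregnant 448, for the clone order, for the count of like clones and for the interferon-stimulated genes. The order 448, 426, 447, 316 held in 25 of 26 clones with equal column medians and in 24 with quantile normalization.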
